A study of Oryza sativa with 8 samples.

Results

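The genes described here are 42 secreted class III peroxidase genes of rice that lie in 8 tandem clusters on chromosomes 1, 3, 4, 5, 6 and 7. They were taken from a fixed list of identifiers, not by a rule on their measured values. That list was set with earlier results of these data known. All 42 were found among the 55797 genes with a single locus in every library. The libraries came from Nipponbare seedlings, 2 weeks old and grown in liquid culture, with no transgene or mutation named in the labels. Leaf and root were each sampled from plants given NaCl (150 mmol, stated without a volume) and from plants kept in normal medium, 24 hours into the treatment. This gave 4 groups of 2 libraries each, a control and a salt group for leaf and the same for root. Groups follow the titles, because the tissue field calls the root libraries shoot and the leaf libraries seedling. The study asked how salt-responsive genes are regulated in leaf compared with root. The labels call the replicates biological but do not say whether they were separate plants or cultures, so p-values cover the spread between these libraries only.

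Class III peroxidases are haem enzymes that plants send through the secretory pathway to the cell wall, the apoplast or the vacuole. With hydrogen peroxide they oxidise phenolic compounds, which couples monolignols into lignin, builds the aromatic part of suberin and cross-links wall polysaccharides and structural proteins. They can also release reactive oxygen species, and the same family has been linked both to wall loosening during growth and to wall stiffening. The family grew by tandem duplication in grasses, so neighbouring genes are often close relatives. The files carry no gene names, and a role for single members is therefore not given. Members are called by their locus identifiers, and the 2 clusters on chromosome 1 and on chromosome 7 are told apart as the first and the second in chromosomal order.

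The clusters span 13.5 kb to 82.4 kb in the coordinates of the files, whose genome build is not given in the sources used here. The first chromosome 1 cluster holds 5 members between 12499923 and 12582301, and the second holds 2 between 42429502 and 42442958. The chromosome 3 cluster holds 7 members (14436110 to 14505973), the chromosome 4 cluster 6 (35187373 to 35246738), the chromosome 5 cluster 7 (2010115 to 2082760) and the chromosome 6 cluster 3 (20676130 to 20706997). On chromosome 7 there are 6 members between 26557312 and 26618066 and 6 between 28669498 and 28692640. Neighbouring members of a cluster lay between 234 and 32077 bases apart, with a median gap of 8098.5 bases. No member overlapped another locus of the files. Exons, strand and the likeness of the copies are not given there, so reads shared between near-identical members would make their values uncertain, and this was not examined.

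Levels are FPKM, the number of fragments scaled by transcript length and by the mapped fragments of the library. They also depend on which other genes a library holds, which limits comparisons between libraries. Summed FPKM ranged from 690254 in leaf salt replicate 1 to 793302 in root control replicate 2. Depth is not stated, but the deposited confidence bounds imply between 9062920 and 10696000 fragments per library. Genes with at least 1 FPKM in 2 of the 8 libraries were tested, which kept 23776 genes and 38 of the 42 members. Of these 38, 18 passed through root libraries only and 2 through leaf libraries only, so that a tissue difference was built into their passing. LOC_Os07g44600 and LOC_Os07g48050 were listed at 0 in all 8 libraries. LOC_Os06g35490 stayed at 0.281 FPKM or below, and LOC_Os07g44499 reached 1 FPKM in root salt replicate 1 alone, with 1.04 FPKM. Since 9 genes of the series stood at 0 in 1 library and at 10 FPKM or more in the other 7, a 0 can be a failed estimate and is reported as listed, with no fold. Changes are differences of log2(FPKM + 1) from limma, with Benjamini-Hochberg adjusted p-values over all 23776 genes, and a member is said to be higher, to rise or to fall where that p was under 0.05.

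**Figure D1:**
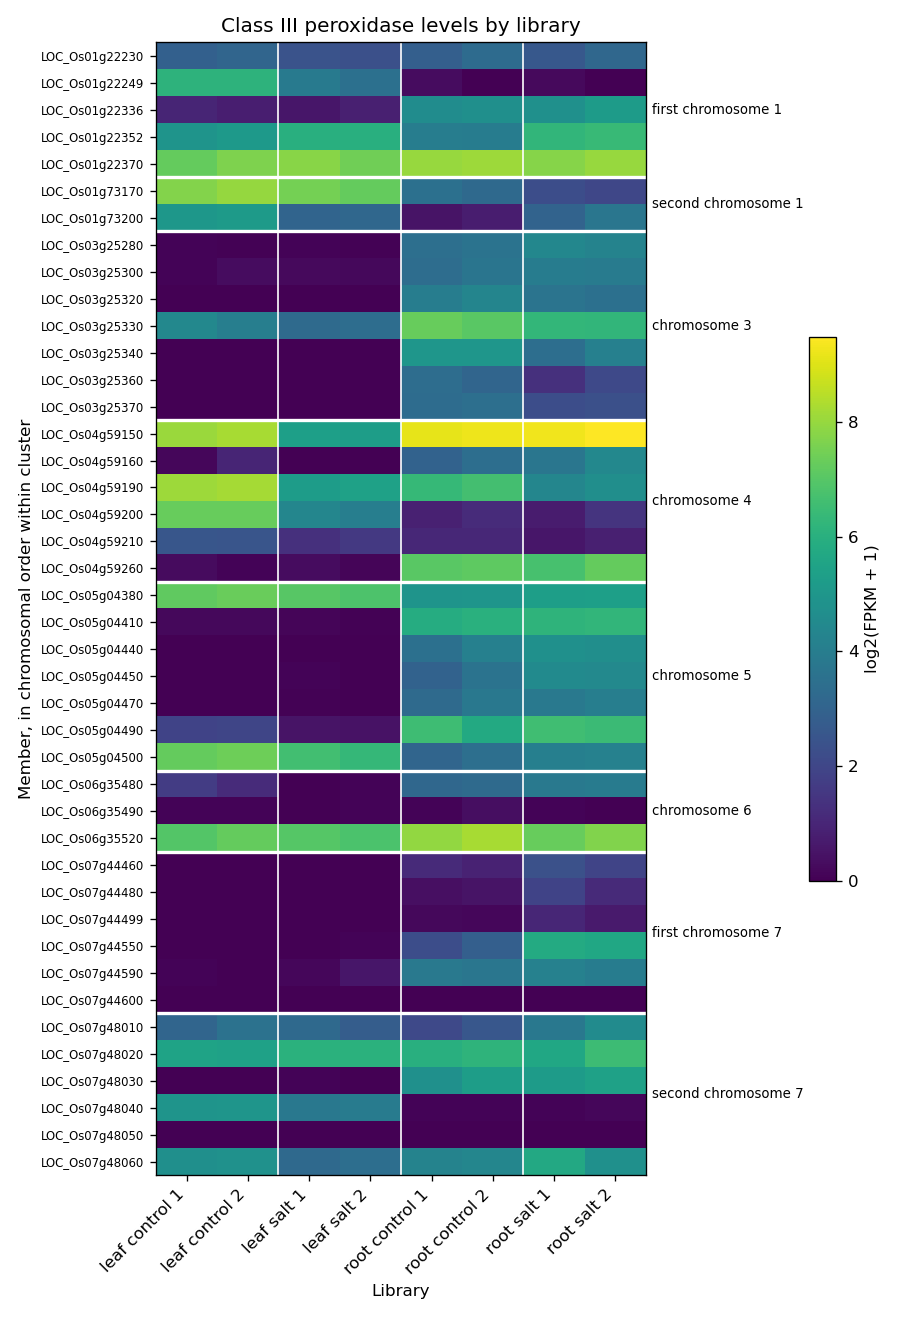
Level of each of the 42 members, as log2(FPKM + 1), in the 8 libraries (columns); rows are in chromosomal order and white lines separate clusters and groups. LOC_Os04g59150 is the brightest row in root, the chromosome 3 cluster is dark in leaf except for LOC_Os03g25330, and LOC_Os07g44600 and LOC_Os07g48050 are at 0 throughout.

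Summed over all members, leaf and root controls held similar amounts of peroxidase transcript, and the sum was lower with salt in leaf but not in root. The 42 members came to 1746 and 1957 FPKM in the leaf control libraries and to 1926 and 2072 in the root control libraries. With salt the sum was 1044 and 914 FPKM in leaf, below both controls, and 1912 and 2210 in root, where the groups overlapped. In leaf the mean with salt was 0.529 times that of the control, and in root it was 1.03 times. The chromosome 4 cluster carried 72.0% of the fall in leaf. Without it the leaf controls held 1049 and 1203 FPKM and the leaf salt libraries 947 and 817, so the other 7 clusters together were also lower with salt in both libraries. The sums were not tested.

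**Figure D2:**
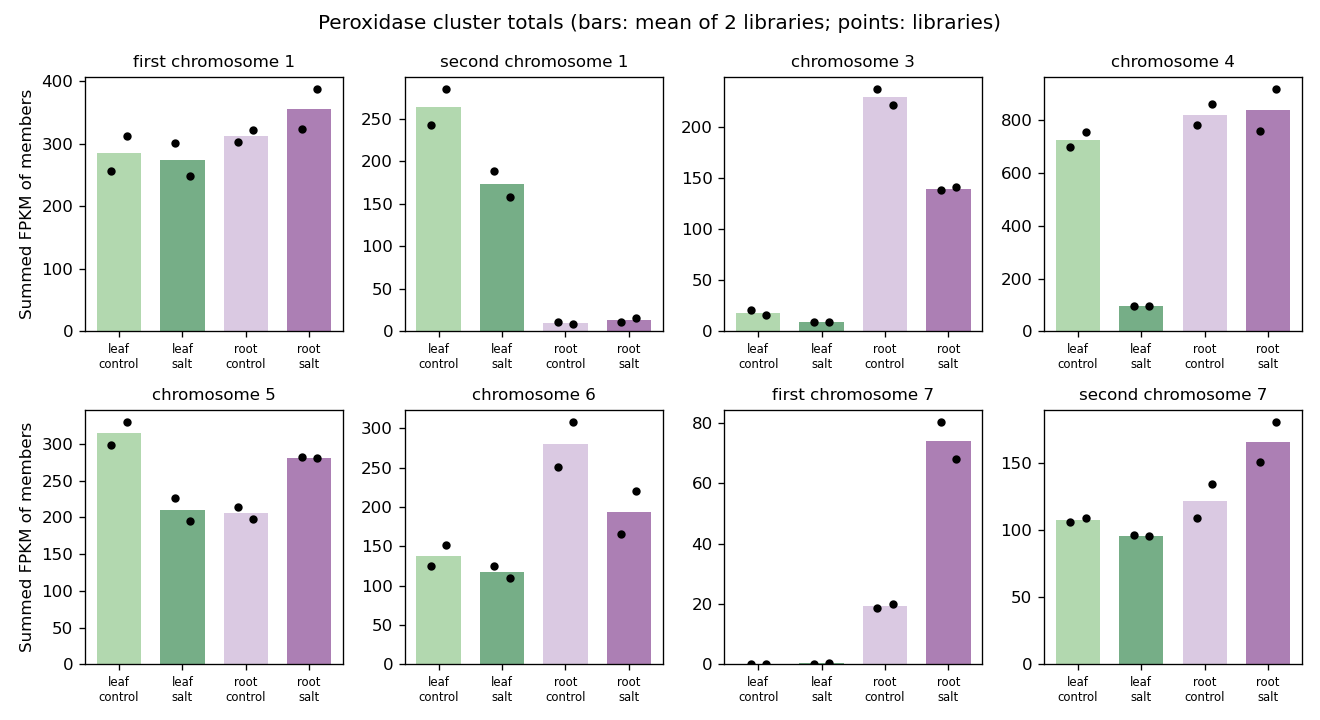
Summed FPKM of the members of each cluster, by group; bars are means of 2 libraries, points are single libraries, and each panel has its own axis from 0. The chromosome 4 total goes from 698 and 754 FPKM to 97.7 and 97.4 in leaf with salt and stays between 760 and 917 in root, and the first chromosome 7 total goes in root from 18.7 and 19.9 to 80.1 and 68.0 FPKM.

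Without salt, some members with the higher level in root stood next to members with the higher level in leaf. Root had the higher level for 23 of the 42 members and leaf for 11, while 4 were not called and 4 were not tested. Over all tested genes 67.4% were called, 39.1% with the higher level in root and 28.3% in leaf, so a tissue difference by itself is common in these data. The filter fixed much of the members' count, since 17 of the 23 passed it through root libraries only and 2 of the 11 through leaf libraries only. Among the 18 members that passed in both tissues, 6 had the higher level in root, 9 had it in leaf and 3 were not called, against 37.7% and 26.2% of the 19610 genes that passed in both. The members higher in root had means of 1.04 to 586 FPKM in root controls, and those higher in leaf had 4.79 to 284 FPKM in leaf controls. Of the 34 pairs of adjacent members, 12 were both higher in root, 3 both higher in leaf and 8 were split, 1 higher in root and its neighbour in leaf. In the other 11 pairs a member was not called or not tested. Adjacent genes of the whole series were not counted in this way, and the filter fixed many of these directions.

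The chromosome 4 cluster was split in this way. LOC_Os04g59260, the last member, had 132 and 138 FPKM in the root controls and 0.211 and 0.0528 FPKM in the leaf controls, which is 6.91 ± 0.18 apart on the log2 scale (SE, limma adjusted p = 3.72e-07). LOC_Os04g59200, 2 members before it, had 153 and 155 FPKM in the leaf controls and 0.840 and 1.24 FPKM in the root controls (log2 difference -6.26 ± 0.235, SE, limma adjusted p = 1.22e-06). No other members differed as much in either direction on this scale. Between them lies LOC_Os04g59210, with 4.86 and 4.71 FPKM in leaf and 1.07 and 1.09 in root. LOC_Os04g59150, at the other end, was the most abundant member in root and about level with LOC_Os04g59190 in leaf, with 264 and 300 FPKM in the leaf controls and 561 and 611 in the root controls. The deposited bound of LOC_Os04g59150 lay 3.58% to 7.76% from its level in the 8 libraries.

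The chromosome 5 cluster had leaf members at both ends. LOC_Os05g04380 had 144 and 159 FPKM in leaf controls against 29.4 and 30.2 in root controls, and LOC_Os05g04500 had 152 and 167 against 7.63 and 9.98. The 5 members between them were all higher in root, but 4 of these, all except LOC_Os05g04490, passed the filter through root libraries only. LOC_Os05g04410 led this difference with 58.1 and 63.5 FPKM in root and 0.160 in both leaf controls (5.73 ± 0.0998 on the log2 scale, SE, limma adjusted p = 1.73e-07). LOC_Os05g04490 had 92.8 and 53.7 FPKM in root and 2.75 and 2.91 in leaf. LOC_Os05g04440, LOC_Os05g04450 and LOC_Os05g04470 were listed at 0 in both leaf controls and lay between 6.83 and 16.5 FPKM in root.

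All 7 members of the chromosome 3 cluster were called higher in root, of which 6 passed the filter through root libraries only, so that their direction was built in. LOC_Os03g25330 alone passed in both tissues. It was the leading member, with 153 and 131 FPKM in root controls and 20.6 and 15.4 in leaf controls, and made up 62.0% of the cluster total in root. LOC_Os03g25320, LOC_Os03g25340, LOC_Os03g25360 and LOC_Os03g25370 were listed at 0 in all 4 leaf libraries. In root controls LOC_Os03g25340 had 30.5 and 30.8 FPKM, and the other members apart from LOC_Os03g25330 had 7.52 to 18.8 FPKM. The first chromosome 7 cluster was likewise close to absent from leaf, where no member passed 0.5 FPKM in any library, but its root levels were low too, with LOC_Os07g44590 highest at 13.3 and 12.2 FPKM in the controls.

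The second chromosome 1 cluster was its counterpart in leaf. LOC_Os01g73170 had 211 and 250 FPKM in leaf controls and 10.4 and 8.51 in root controls (log2 difference -4.47 ± 0.152, SE, limma adjusted p = 8.2e-07). LOC_Os01g73200 had 31.4 and 34.8 FPKM against 0.405 and 0.710. Both were higher in leaf, and their log2 differences of -4.47 and -4.46 were alike only with the pseudocount of 1. As a ratio of mean FPKM, root stood at 0.0411 of leaf for LOC_Os01g73170 and at 0.0168 for LOC_Os01g73200. With a pseudocount of 0.1 LOC_Os01g73200 had the larger difference, and with a pseudocount of 5 it had the smaller.

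The first chromosome 1 cluster and the second chromosome 7 cluster were mixed. LOC_Os01g22249 was a leaf transcript with 69.2 and 69.9 FPKM in the controls, and in root it was listed at 0.247 and 0.193 FPKM in the replicates numbered 1 and at 0 in those numbered 2. Its log2 difference was -5.98 ± 0.181 (SE, limma adjusted p = 5.78e-07). LOC_Os01g22370 led the cluster in both tissues, with 150 and 201 FPKM in leaf and 258 and 272 in root. It was called higher in root (0.61 on the log2 scale, limma adjusted p = 0.0231), but not without leaf control replicate 1 (0.40, limma adjusted p = 0.13), root control replicate 1 (limma adjusted p = 0.0587) or root control replicate 2 (limma adjusted p = 0.0857), nor with no filter on low values (limma adjusted p = 0.0521). In the second chromosome 7 cluster, LOC_Os07g48030 had 26.2 and 38.2 FPKM in root controls and was listed at 0 in leaf controls. Its neighbour LOC_Os07g48040 had 28.8 and 29.7 FPKM in leaf controls and 0.0626 and 0.0659 in root. LOC_Os07g48020, the leading member, had 44.4 and 41.7 FPKM in leaf and 61.9 and 71.8 in root and was not called (limma adjusted p = 0.0599).

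The levels of members low in root are given beside those of other genes that are high in leaf. Over 176 genes with at least 100 FPKM in both leaf controls and under 2% of that on average in root, the median level relative to leaf was 1.19% and 0.353% in the root controls, in replicate order, and 0.264% and 0.368% in the root salt libraries, low values that the choice of these genes sets in part. LOC_Os04g59200, a member of that list, stood at 0.546% and 0.803% of its leaf control level in the root controls and at 0.416% and 1.09% with salt. LOC_Os07g48040 stood at 0.214% to 0.426% and LOC_Os01g22249 at 0 to 0.355%. Whether these root levels come from leaf RNA or from root cells was not tested, and in whole tissue fewer cells of a type and less RNA per cell cannot be told apart.

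In leaf, salt lowered 13 of the 42 members and raised 1. Another 24 were not called. Over all tested genes 33.8% were called in leaf, of which falling genes were 18.9% and rising genes 14.8% of those tested. The median change was -0.55 on the log2 scale over the 26 tested members that were not listed at 0 throughout a leaf group, and -0.07 over the 22868 tested genes of which the same holds. Over all 38 tested members it was -0.14, and over all 23776 tested genes -0.05. The members that fell were spread over 7 of the 8 clusters. The first chromosome 7 cluster had none, but its total was 0.0611 and 0 FPKM in the leaf controls, which left no room for a fall.

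**Figure D3:**
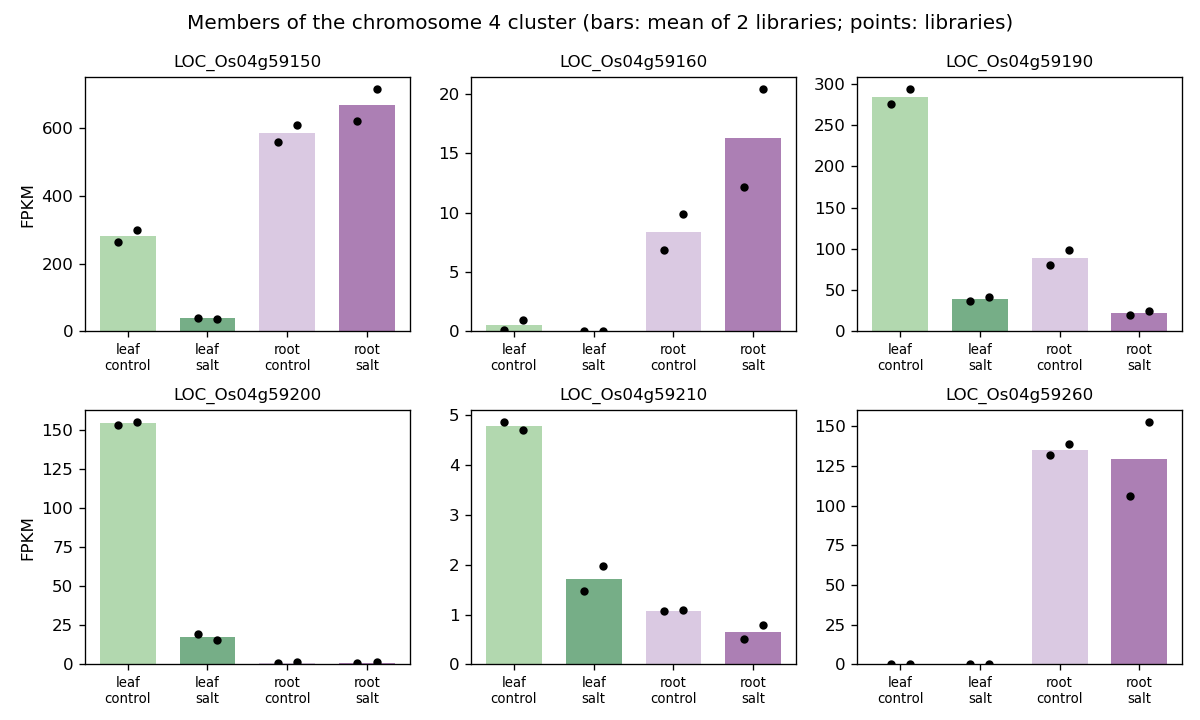
FPKM of the 6 members of the chromosome 4 cluster by group; bars are means of 2 libraries, points are single libraries, and each panel has its own axis from 0. LOC_Os04g59150, LOC_Os04g59190, LOC_Os04g59200 and LOC_Os04g59210 are lower in leaf with salt in both libraries, and in root only LOC_Os04g59190 was called lower.

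The falls with the 3 lowest log2 values all lay in the chromosome 4 cluster. LOC_Os04g59200 went from 153 and 155 FPKM to 19.3 and 15.8 (log2 change -3.07 ± 0.235, SE, limma adjusted p = 0.000211). LOC_Os04g59150 went from 264 and 300 FPKM to 39.5 and 37.7 (-2.83 ± 0.12, SE, limma adjusted p = 4.11e-05). LOC_Os04g59190 went from 275 and 293 FPKM to 37.3 and 41.8 (-2.82 ± 0.15, SE, limma adjusted p = 6.92e-05). In each of them both salt libraries lay far below both controls, and the calls were kept in all 16 alternative settings tried. LOC_Os04g59210 fell as well, from 4.86 and 4.71 FPKM to 1.47 and 1.97. LOC_Os04g59160 had 0.12 and 0.955 FPKM in leaf controls and was listed at 0 with salt, and LOC_Os04g59260 stayed at 0.237 FPKM or below, and neither was called.

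LOC_Os04g59150 and LOC_Os04g59190 kept step in leaf and parted in root. In the 4 leaf libraries the level of LOC_Os04g59150 was 0.901 to 1.06 times that of LOC_Os04g59190, with and without salt. In leaf control replicate 1 its bounds implied 2292 fragments at 264 FPKM, against 4747 at 275 FPKM for LOC_Os04g59190. Whether reads shared between the 2 members affect these levels was not examined. The same ratio was higher in root. In root controls it was 7.03 and 6.19 times as high, and in root with salt 31.7 and 28.6 times. In root LOC_Os04g59190 fell from 79.9 and 98.6 FPKM to 19.6 and 25.0 (log2 change -1.96 ± 0.15, SE, limma adjusted p = 0.000208). LOC_Os04g59150 had 561 and 611 FPKM in root controls and 622 and 716 with salt and was not called (log2 change 0.19, limma adjusted p = 0.252). The difference between its root and leaf changes, 3.02 ± 0.17 on the log2 scale, passed the test of the interaction of tissue and treatment (SE, limma adjusted p = 0.000254).

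Outside chromosome 4, LOC_Os01g22249 fell in leaf from 69.2 and 69.9 FPKM to 13.6 and 10.3 (log2 change -2.46 ± 0.181, SE, limma adjusted p = 0.000183). LOC_Os01g73200 fell from 31.4 and 34.8 FPKM to 7.41 and 8.02 (-1.97 ± 0.23, SE, limma adjusted p = 0.00106), while its only cluster partner LOC_Os01g73170 went from 211 and 250 FPKM to 182 and 150 and was not called (limma adjusted p = 0.0509). The level of LOC_Os01g73170 relative to LOC_Os01g73200 was 6.71 and 7.19 in leaf controls and 24.5 and 18.7 with salt. LOC_Os05g04490, LOC_Os07g48060, LOC_Os06g35480, LOC_Os07g48040, LOC_Os03g25330, LOC_Os05g04500 and LOC_Os05g04380 were the other members that fell, by log2 changes of -1.45 to -0.32. LOC_Os05g04380 was the weakest of them, from 144 and 159 FPKM to 129 and 114, and its call was lost in 11 of the 16 alternatives (limma adjusted p = 0.0364 as fitted and up to 0.175).

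LOC_Os01g22352 was the single member that rose in leaf, and it rose in root too. In leaf it had 29.3 and 33.7 FPKM without salt and 61.7 in both libraries with salt (log2 change 0.95 ± 0.0956, SE, limma adjusted p = 0.000589). In root it went from 15.2 and 14.7 FPKM to 74.2 and 82.4 (2.31 ± 0.0956, SE, limma adjusted p = 5.56e-05). Higher in leaf than in root without salt, it was higher in root than in leaf in both salt libraries. Its 4 cluster partners were not called in root. LOC_Os07g48020 had a second, uncalled increase in leaf, from 44.4 and 41.7 to 66.2 and 65.3 FPKM (limma adjusted p = 0.108). It was called higher when the fit used leaf libraries alone or left out either root salt library, which makes the count of rising members 2.

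In root, 13 members rose with salt and 8 fell, and 17 were not called. Over all tested genes 43.4% were called in root, with 29.1% rising and 14.4% falling, and the median change of all tested genes there was 0.127 on the log2 scale. Scaling each library to its 75th percentile brought that median to -0.0054 and the rising and falling genes to 4850 and 4708, from 6918 and 3412, with 10 members rising and 8 falling, and after quantile normalization 10 rose and 9 fell. The median change over the 38 tested members was 0.28. The rising and falling members are given by cluster, and whether their spread over the clusters was uneven was not tested. The chromosome 3 cluster had 5 of the 8 that fell, the chromosome 5 cluster had 4 that rose and none that fell, and the first chromosome 7 cluster had 3 that rose and none that fell.

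**Figure D4:**
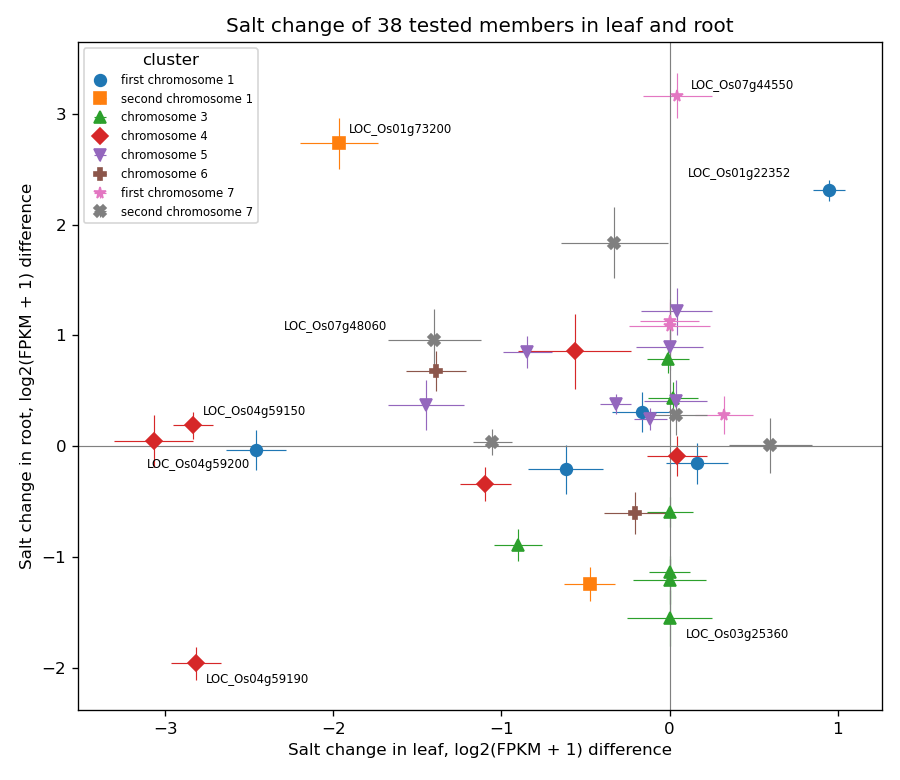
Salt change in root (vertical) against salt change in leaf (horizontal) for the 38 tested members, on the log2(FPKM + 1) scale with SE bars, marked by cluster. LOC_Os01g22352 rises in both tissues at the upper right, LOC_Os04g59190 falls in both at the lower left, and LOC_Os01g73200 at the upper left falls in leaf by 1.97 and rises in root by 2.74.

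LOC_Os07g44550 rose most in root, on this scale. It had 3.78 and 6.28 FPKM in the root controls and 55.3 and 48.6 with salt (log2 change 3.16 ± 0.205, SE, limma adjusted p = 0.00013). In leaf it was listed at 0 in 3 libraries and at 0.0643 FPKM in leaf salt replicate 2. With salt it overtook LOC_Os07g44590, which lies 10518 bases further on. LOC_Os07g44590 had 13.3 and 12.2 FPKM in controls and 16.9 and 14.7 with salt and was not called (limma adjusted p = 0.227). The level of LOC_Os07g44550 relative to it went from 0.284 and 0.514 to 3.28 and 3.31. LOC_Os07g44460 rose from 1.21 and 0.880 FPKM to 4.15 and 2.87, and LOC_Os07g44480 from 0.304 and 0.416 to 2.75 and 1.21. These rest on few fragments, since the bounds of LOC_Os07g44480 imply 5 and 4.83 in the controls and 43.0 and 20.0 with salt. LOC_Os07g44480 passed the filter only through the root salt libraries, so a rise was built into its passing.

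LOC_Os01g73200 rose in root from 0.405 and 0.710 FPKM to 7.09 and 12.2 (log2 change 2.74 ± 0.23, SE, limma adjusted p = 0.000272), while it fell in leaf. LOC_Os01g73170 fell in root from 10.4 and 8.51 FPKM to 3.73 and 3.11 (-1.24 ± 0.152, SE, limma adjusted p = 0.00103). These 2 neighbours thus changed in opposite directions in root, and their order of abundance there was exchanged in both salt libraries. Of the 34 adjacent pairs, 2 both rose in root, 4 both fell and this 1 was opposite. In the other 27 a member was not called or not tested. Adjacent genes of the whole series were not counted in this way. With salt, LOC_Os01g73200 reached in root about the level it had in salt-treated leaf, 7.41 and 8.02 FPKM. LOC_Os07g48010 rose in root from 3.31 and 4.89 FPKM to 12.7 and 22.6 (1.84 ± 0.318, SE, limma adjusted p = 0.00409), with leaf levels of 5.91 to 11.1 FPKM in all 4 libraries.

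On chromosome 5, LOC_Os05g04450 rose from 6.83 and 11.3 FPKM to 22.3 and 21.2 in root (log2 change 1.22 ± 0.209, SE, limma adjusted p = 0.00399). LOC_Os05g04440 rose from 10.4 and 16.5 to 25.9 and 24.6 FPKM, although its call was lost without root salt replicate 1 (limma adjusted p = 0.0599) and with root libraries alone (limma adjusted p = 0.0687). LOC_Os05g04410 and LOC_Os05g04470 were higher in both salt libraries than in both controls but were not called, with 70.1 and 74.1 FPKM and 13.1 and 15.6 FPKM with salt. LOC_Os05g04490 overlapped between the groups, with 92.8 and 53.7 FPKM in controls and 95.4 and 88.5 with salt. The cluster total in root was 214 and 198 FPKM without salt and 282 and 281 with salt.

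The chromosome 3 cluster had its falling members side by side in root, an order read from the values and not tested. Its last 5 members, from LOC_Os03g25320 to LOC_Os03g25370, all fell, and its first 2 did not. LOC_Os03g25360 fell from 9.46 and 7.52 FPKM to 1.47 and 3.23 (log2 change -1.55 ± 0.254, SE, limma adjusted p = 0.00332). LOC_Os03g25340 fell from 30.5 and 30.8 FPKM to 9.75 and 16.4 (-1.21 ± 0.217, SE, limma adjusted p = 0.00473). LOC_Os03g25370 fell from 9.31 and 10.1 FPKM to 3.78 and 3.99 (-1.13 ± 0.119, SE, limma adjusted p = 0.000589). LOC_Os03g25330, the leading member, fell from 153 and 131 FPKM to 77.1 and 74.6 in root and also in leaf, from 20.6 and 15.4 to 8.77 and 9.41. LOC_Os03g25320 had a smaller fall, from 15.3 and 18.8 to 11.4 and 10.4 FPKM, which was not called without root control replicate 2 (limma adjusted p = 0.0662) or root salt replicate 2 (limma adjusted p = 0.0561), nor with a pseudocount of 0.1 (limma adjusted p = 0.0711). At the other end, LOC_Os03g25280 rose from 10.1 and 11.2 FPKM to 20.1 and 18.1 (0.79 ± 0.124, SE, limma adjusted p = 0.00286). LOC_Os03g25300 had 9.38 and 11.8 FPKM in controls and 14.6 and 14.5 with salt and just missed the threshold (limma adjusted p = 0.0526).

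On chromosome 6, LOC_Os06g35520 carried nearly the whole cluster, with 97.0% of its total in root controls. It fell in root from 243 and 299 FPKM to 153 and 206, a call lost in 6 of the 16 alternatives (limma adjusted p = 0.0385 as fitted and up to 0.189, without root salt replicate 1), and had 122 and 150 FPKM in leaf controls and 125 and 110 with salt. The abundant LOC_Os04g59260 and LOC_Os01g22370 were not called in root, with 106 and 152 FPKM and 218 and 261 FPKM with salt. LOC_Os07g48020 had 49.9 and 90.0 FPKM in the root salt libraries, on either side of its controls, so that leaving out 1 or the other gave a call in opposite directions (log2 change 0.43 and -0.41). LOC_Os07g48060 was similarly uneven, with 17.8 and 19.3 FPKM in controls and 52.0 and 26.3 with salt. It was called higher (limma adjusted p = 0.0291), but in 10 of the 16 alternatives the call was lost.

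The salt change itself differed between root and leaf for 23 members, as tested by the interaction of tissue and treatment. It was more positive in root for 19 and more positive in leaf for 4. Over all tested genes 32.8% were called, 23.1% and 9.71% in these directions, a split of 5496 to 2309 genes that became 3977 to 3322 after scaling to the 75th percentile. The members then split 16 to 5. For 5 of the 23 members every leaf library was listed at 0, so that the difference equals the root change. LOC_Os03g25280, LOC_Os05g04450 and LOC_Os07g44550 stayed at 0.0715 FPKM or below in leaf. In root LOC_Os07g48040 stayed at 0.125 FPKM or below and LOC_Os01g22249 at 0.247 or below. For each of these the difference was close in size to the change in the other tissue alone. The 4 members with a more positive change in leaf were LOC_Os01g73170, LOC_Os03g25340, LOC_Os03g25360 and LOC_Os03g25370. Of these, only LOC_Os01g73170 was above 0 in leaf. That count of 4 fell to 1 without leaf control replicate 1 or leaf salt replicate 1, and to 2 without leaf control replicate 2, leaf salt replicate 2 or root control replicate 1. It was also 2 with a pseudocount of 0.1 or with no filter on low values.

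The members called in both tissues were 8. LOC_Os01g22352 rose in both, and LOC_Os03g25330 and LOC_Os04g59190 fell in both. The other 5 fell in leaf and rose in root, and none rose in leaf and fell in root. All tested genes leaned the same way, with 18.9% falling and 14.8% rising in leaf. In root 29.1% of them rose and 14.4% fell. Calls in both tissues together were not counted over all tested genes, so these counts are not read as particular to the members. LOC_Os01g73200 had the largest difference between the tissues of all 38, 4.70 ± 0.325 on the log2 scale (SE, limma adjusted p = 0.000391). LOC_Os05g04500 went from 152 and 167 FPKM to 97.2 and 79.7 in leaf and from 7.63 and 9.98 to 16.1 and 17.0 in root (difference 1.70 ± 0.206, SE, limma adjusted p = 0.00189). Both calls of LOC_Os01g73200 and of LOC_Os05g04500 were kept in all 16 alternatives. The other 3 were less stable in root. LOC_Os06g35480 went from 2.21 and 1.26 FPKM to 0 and 0.0571 in leaf and from 8.05 and 8.60 to 13.4 and 14.4 in root. Its root call was lost after scaling to the 75th percentile (limma adjusted p = 0.0728) and without any 1 of the 4 root libraries (limma adjusted p = 0.0629 to 0.0917). LOC_Os05g04380 went from 29.4 and 30.2 to 38.7 and 39.6 FPKM in root, which was not called in 5 of the 16 alternatives, among them scaling to the 75th percentile (limma adjusted p = 0.157). LOC_Os07g48060, with its uneven root salt libraries, differed between the tissues by 2.36 ± 0.391 (SE, limma adjusted p = 0.00556).

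The genes around the clusters gave the following values. Within 100 kb of the clusters lay 285 other loci, of which 134 were tested, only 2 of them inside a cluster. In leaf 20 of the 134 fell and 27 rose, with a median change of -0.06, and in root 40 rose and 20 fell, with a median of 0.11. Around the chromosome 4 cluster 6 of 21 tested genes fell in leaf and 2 rose, with a median of -0.25, while 4 of its 6 members fell. Around the chromosome 3 cluster 4 of 20 fell and 4 rose in root, with a median of 0.04, while 5 of its 7 members fell and 1 rose. Around the first chromosome 7 cluster 10 of 24 rose in root and 3 fell, with a median of 0.36. Whether members and surroundings differ was not tested.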

How the data were processed

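RNA sequencing libraries of leaf and root, with and without salt, were analysed from gene-level FPKM with lower and upper confidence bounds, as deposited by the authors. Cufflinks 2.2.1, Cuffdiff and TopHat2 2.0.13 are named per the submitters' processing notes. No source used here states the genome build, annotation or strand setting. Identifiers standing at several loci (4) and unplaced genes listed in 3 libraries were left out, and starts were made 1-based. Genes with at least 1 FPKM in 2 of 8 libraries were tested with limma 3.58.1 in R 4.3.3 on log2(FPKM + 1). The fit had 4 group means, a variance trend and no further scaling. It was checked on data simulated with normal noise for salt in leaf only, which does not cover the other comparisons. The square of (2 × FPKM / distance to the upper bound) gave implied fragments, which takes the bound as counting error alone. Members named with values were the leading member of each cluster, the 5 called members with the largest change per direction and comparison, and those called in opposite directions, 26 in all; further members were named after their values were seen. Members, clusters and lists were chosen with earlier results of these data known. Alternatives changed the pseudocount, filter, scaling, groups fitted, variance trend and replicate block, or left out 1 library.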

Additional observations from a re-analysis of the deposited data

Results flagged for a closer look

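For 23 members the response to salt was unequal in the 2 tissues by the limma test of the interaction of tissue and treatment, and these results are listed for that reason, as the root change minus the leaf change on the log2(FPKM + 1) scale. On chromosome 1 the differences were 2.43 for LOC_Os01g22249, 1.36 for LOC_Os01g22352, -0.77 for LOC_Os01g73170 and 4.70 for LOC_Os01g73200. On chromosome 3 they were 0.79 for LOC_Os03g25280, -1.21 for LOC_Os03g25340, -1.55 for LOC_Os03g25360 and -1.13 for LOC_Os03g25370. On chromosome 4 they were 3.02 for LOC_Os04g59150, 0.86 for LOC_Os04g59190, 3.12 for LOC_Os04g59200 and 0.75 for LOC_Os04g59210. On chromosome 5 they were 0.70 for LOC_Os05g04380, 1.17 for LOC_Os05g04450, 1.82 for LOC_Os05g04490 and 1.70 for LOC_Os05g04500, and on chromosome 6 the value was 2.06 for LOC_Os06g35480. On chromosome 7 they were 1.13 for LOC_Os07g44460, 1.08 for LOC_Os07g44480, 3.12 for LOC_Os07g44550, 2.17 for LOC_Os07g48010, 1.09 for LOC_Os07g48040 and 2.36 for LOC_Os07g48060. Of the 23 calls, 13 were kept in every alternative tried. LOC_Os07g44480 lost its call in 12 of 15 alternatives and LOC_Os04g59210 in 10 of 15.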

How the results depend on the processing

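Over 16 alternatives, 32 of the 34 tissue calls of members in controls were kept throughout, as were 11 of 14 salt calls in leaf and 14 of 21 in root. For the difference between tissues 15 alternatives apply, and 13 of 23 calls were kept throughout. The number of members rising in leaf was 2 in place of 1 with only the groups compared, and 1 to 2 with libraries left out. Members with a more positive change in leaf numbered 2 in place of 4 with a pseudocount of 0.1 and 2 with no filter, and 1 to 4 with libraries left out. LOC_Os07g48020 in root was not called as fitted and was called lower (-0.41) without root salt replicate 2 and higher (0.427) without root salt replicate 1. Cluster totals in root lay above both controls in both salt libraries for 4 clusters, and for 2 after scaling to the 75th percentile. The median change of all tested genes in root was 0.127 as fitted and -0.0054 after that scaling. No such count of totals was made for other sets of genes. Of 34 other loci within the cluster spans 2 were tested, and 0% of these were called in each of the 4 comparisons. The causes were not tested. The titles number the replicates alike in every group, but these numbers share no stated source, and deviations of same-numbered libraries correlated by -0.021 to 0.213 between groups. With the replicate block, 13 members fell and 1 rose in leaf, and 14 rose and 8 fell in root.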
